A study of Mus musculus with 16 samples.

Results

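The claudin, connexin and desmosome genes are the building blocks of the junctions that hold epithelial cells together, seal the space between them and connect their interiors. They were taken by symbol, as all claudin genes (Cldn followed by a number), all connexin genes of the Gja, Gjb, Gjc and Gjd families, the desmogleins and desmocollins (Dsg and Dsc), the plakophilins Pkp1 to Pkp4, and Dsp, Jup and Cdsn. The rule found 65 genes among the 19439 listed in at least 1 library: 30 claudins, 19 connexins, 9 desmosomal cadherins, and 7 genes of the desmosomal plaque or the corneodesmosome. Of these, 45 had enough counts to be tested (15 claudins, 14 connexins, all 9 cadherins and all 7 plaque or corneodesmosome genes). The 20 untested members, 15 claudins and 5 connexins, had between 1 and 79 expected counts each over all 16 libraries and a mean of at most 0.197 FPKM, and 6 of them were listed in 1 library.

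The libraries came from ears of 8-week-old BALB/c mice, all of which were treated with imiquimod, an immune-activating drug whose application to mouse skin gives a psoriasis-like inflammation. Lysophosphatidylcholine (LPC), a membrane lipid left with a single fatty acid, was injected into the dermis of the ear in 1 group of mice at each time, as 10 µl of a 10 mM solution once a day in a course of 6 days. The vehicle mice received the same volume of saline in its place. Mice were killed on day 4 or day 7, which gives 4 groups of 4 mice, with 1 library per mouse, named below by treatment and day. The labels give the 6-day course for every group and do not say how many injections the day 4 mice had received. Comparisons between the days may thus also differ in the number of injections. No group without imiquimod was analysed here, so every value below is from imiquimod-treated skin.

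Claudins are membrane proteins whose strands form tight junctions, the seals that in epidermis lie in the granular layer, and the claudin type sets which ions and molecules pass between cells. Connexins assemble into channels that dock between neighbouring cells to form gap junctions, through which ions and small messengers move. Desmosomes tie the keratin filaments of neighbouring keratinocytes together: desmogleins and desmocollins bridge the gap between cells, plakoglobin (Jup) and plakophilins bind their tails, and desmoplakin (Dsp) anchors the plaque to keratin. Corneodesmosin (Cdsn) is added as desmosomes turn into the corneodesmosomes of the cornified layer. The mix of members changes as keratinocytes leave the basal layer, with Dsg3 and Dsc3 known for the lower layers and Dsg1 and Dsc1 for the upper layers.

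Expected counts summed to between 18704197 and 20131513 per library, and per-mouse values are given as CPM, counts scaled to the library's TMM-adjusted total, in the order of mouse 1 to 4. Each library holds RNA of a whole piece of skin, so fewer cells of a type and less RNA per cell cannot be told apart. The defining genes of keratinocytes were present in every library, and skeletal muscle RNA varied widely. The summed level of 14 muscle markers was 3678 to 36470.0 CPM at vehicle day 4, 276 to 3256 at LPC day 4, 2550.0 to 11620.0 at vehicle day 7 and 372 to 19180.0 at LPC day 7. Among the LPC day 7 mice it was 15130.0 and 19180.0 CPM in mice 2 and 4 and 1018 and 372 CPM in mice 1 and 3. Among the vehicle day 7 mice, mouse 4 had the lowest summed level of 7 neutrophil markers (213 CPM, against 3396 to 4914 in the others) and of 7 basal keratinocyte markers (11660.0 CPM, against 26780.0 to 28470.0).

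Desmosomal plaque genes were the most abundant members per length. Averaged over the 16 libraries (± SD), Jup stood at 279 ± 53.9 FPKM, Pkp1 at 261 ± 68.4 and Dsp at 193 ± 40.8. The spread of each of these 3 overlaps that of its neighbours in the order. Among connexins, Gjb2 (197 ± 140.3 FPKM) and Gja1 (162 ± 70.9 FPKM) were near the level of the plaque genes. The leading cadherins were Dsc3 (89.3 ± 22.1 FPKM), Dsg1a (52.5 ± 23.6 FPKM) and Dsg1b (44.7 ± 25.6 FPKM), of which the last pair do not differ beyond their spread. The leading claudins were Cldn4 at 68.9 ± 28.9 FPKM, between Dsc3 and Dsg1a in the order, Cldn1 at 33.8 ± 12 FPKM and Cldn5, the main claudin of blood vessel endothelium, at 21.9 ± 9.84 FPKM. The SD relative to the mean was smallest for Cldn12 and largest, among tested members, for Dsg4.

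**Figure D1:**
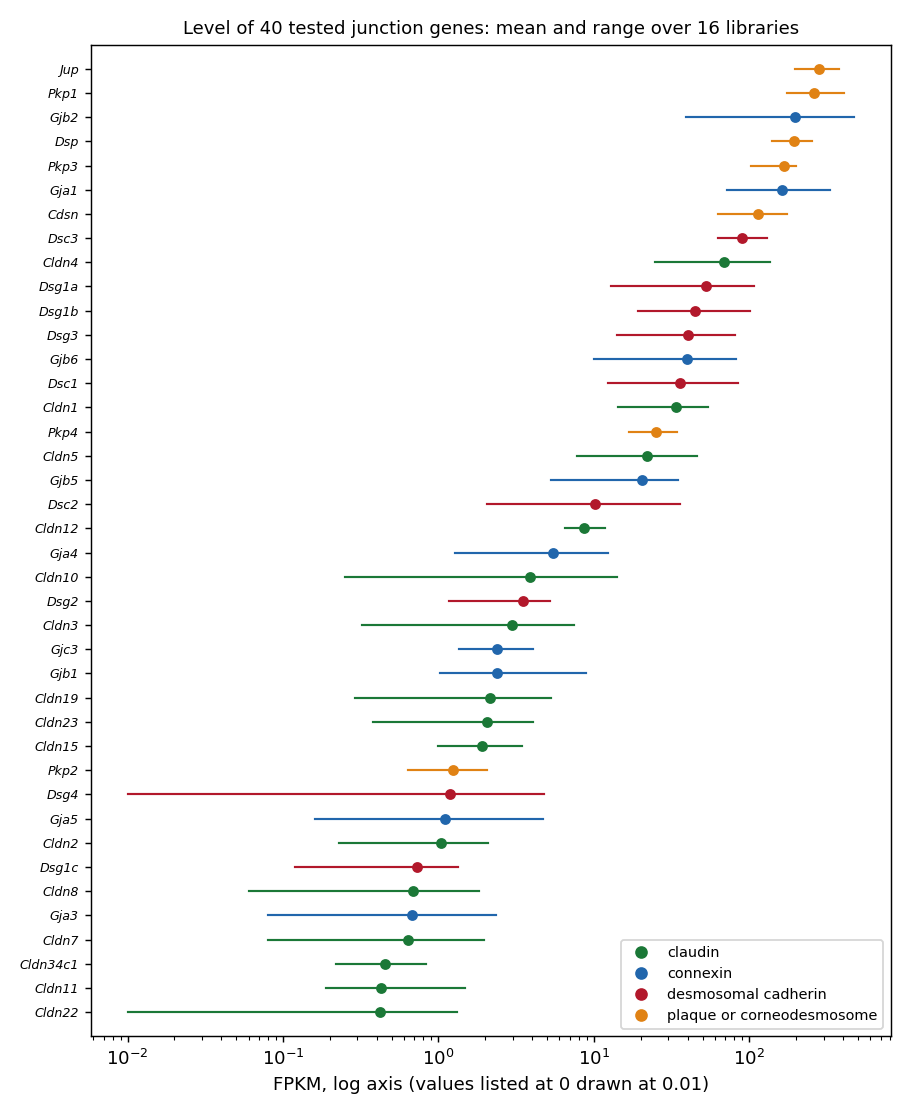
Mean FPKM (points) and range from lowest to highest library (lines) of 40 tested junction genes (9 connexins and all tested members of the other classes) over all 16 libraries, on a log axis and coloured by class. Jup, Pkp1, Gjb2 and Dsp lead with means of 279, 261, 197 and 193 FPKM, and the range of Gjb2 is far wider than that of Jup.

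Taken by comparison, the junction genes that met the threshold lay at day 7 of LPC. A gene is said to have risen or fallen where edgeR's quasi-likelihood test, fitted to all 16 libraries and adjusted over 15782 genes by Benjamini-Hochberg, gave an adjusted p below 0.05. In LPC against vehicle at day 7, 7 of the 45 tested members fell (15.6%) and none rose, where 3.83% of all tested genes met the threshold, 2.38% upward and 1.44% downward. Among the 7 were the connexin Gjb5, the claudin Cldn1 and the desmogleins Dsg1a and Dsg1c. All but Cldn1 fell by more than 2-fold. The median log2 fold change of the 45 members was -0.21, against 0.02 for all tested genes.

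Between day 4 and day 7 of LPC, 5 members rose and 7 fell (26.7% of 45), where 11% of all tested genes met the threshold, 6.87% upward and 4.13% downward. Gjb2, Gjb6, Gja5, Cldn11 and Dsc2 rose. Gjb5, Cldn1, Cldn10 and Dsg1c were among those that fell. This comparison and that of LPC with vehicle at day 7 share the 4 LPC day 7 mice, so their values are set side by side for each gene and are not independent. With the adjustment over all genes, no member met the threshold in LPC against vehicle at day 4 (0.139% of all tested genes did, 0.095% upward and 0.0444% downward), between the days with vehicle (0% of all genes) or in the test of whether the LPC effect differed by day (0% of all genes). At an unadjusted p below 0.05 the edgeR counts were 4, 14 and 13 of 45 members in those 3 comparisons, where 19.2%, 13% and 16.9% of all tested genes passed. DESeq2 called 1, 3 and 6 members there, where it called 7%, 1.41% and 3.71% of all tested genes. On log2 FPKM, limma called no member and at most 0.253% of all tested genes.

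**Figure D2:**
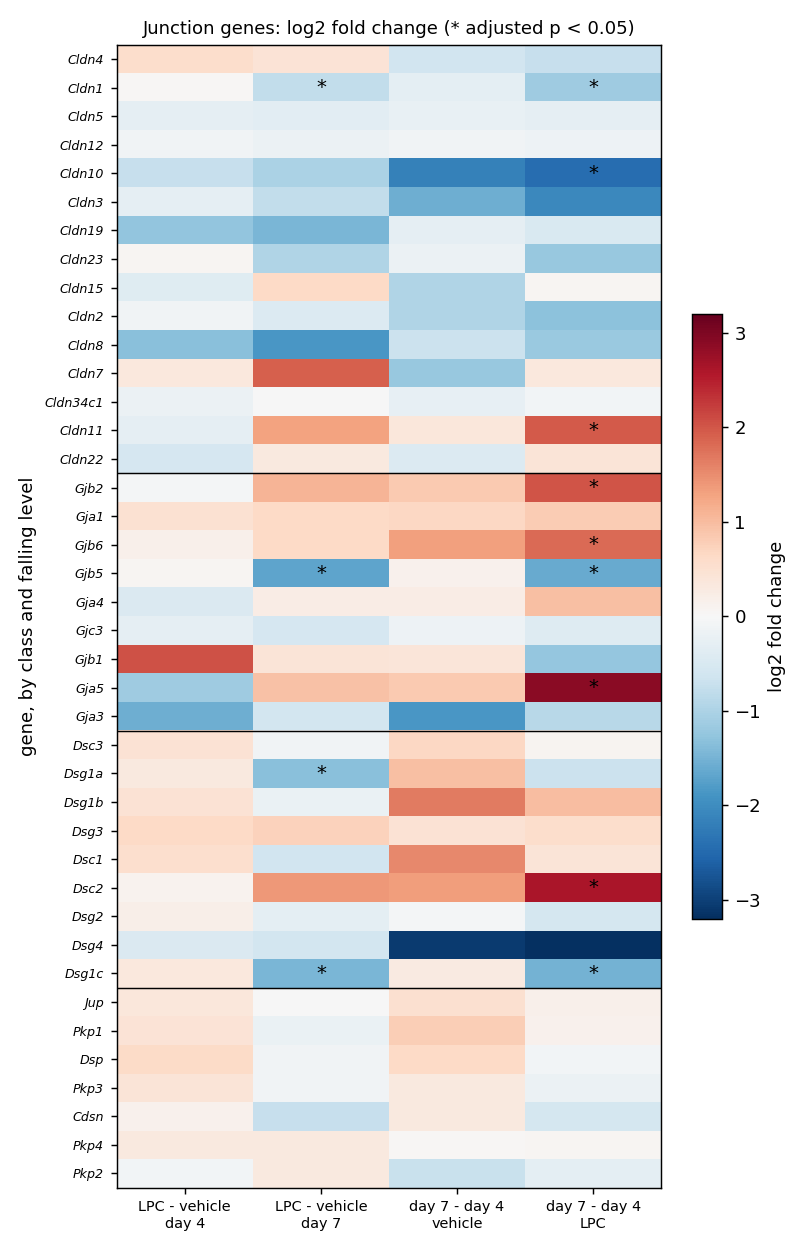
Log2 fold change of 40 tested junction genes (9 connexins and all tested members of the other classes, rows, by class and falling level) in 4 comparisons (columns), red for higher and blue for lower in the first-named group, with an asterisk at an adjusted p below 0.05 in edgeR's quasi-likelihood test. The 4 asterisks drawn for LPC against vehicle at day 7 are all on blue cells, and those of day 7 against day 4 with LPC are on 5 red and 4 blue cells.

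By class, 4 of the 14 tested connexins (28.6%), 2 of 9 desmosomal cadherins (22.2%), 1 of 15 claudins (6.67%) and none of 7 plaque or corneodesmosome genes were called at day 7 of LPC against vehicle, all downward. Between the days with LPC the counts were 7 connexins (3 higher, 4 lower), 2 cadherins (1 higher, 1 lower), 3 claudins (1 higher, 2 lower) and none of the plaque or corneodesmosome genes. Of all tested genes, 3.83% were called at day 7 of LPC against vehicle and 11% between the days with LPC. The classes were not tested against each other, and counts in classes this small are a description. Gjb5 encodes a connexin of the upper epidermis. Gjb2 and Gjb6, whose human counterparts are known from inherited deafness and from keratodermas, are neighbours of Gja3 on chromosome 14 (57034460 to 57133611 in GRCm38, a span of 99152 bp).

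Promoter stretches of 4 members are shown because these genes moved in opposite directions in the LPC day 7 mice: Gjb5 and Cldn1 are among the genes that fell, and Gjb2 and Gjb6 among those that rose from day 4. They are RefSeq sequences on build GRCm38.p6, from up to 250 bases before the annotated start, without bases that GENCODE puts in an exon, read 5′ to 3′ on the gene's strand, which is the minus strand for all 4. The reference table had an entry for 39 of the 65 members, among them 2 of the 7 genes that fell at day 7 and 4 of the 5 that rose between the days. Capitals mark matches, on either strand, to 6 motifs, which were the AP-1 motif TGANTCA, the Grainyhead-like motif AACCGGTT, the STAT motif TTCNNNGAA, the TATA box TATAAA, the GC box GGGCGG and the CCAAT box.
Gjb5 chr4:127358182-127358414: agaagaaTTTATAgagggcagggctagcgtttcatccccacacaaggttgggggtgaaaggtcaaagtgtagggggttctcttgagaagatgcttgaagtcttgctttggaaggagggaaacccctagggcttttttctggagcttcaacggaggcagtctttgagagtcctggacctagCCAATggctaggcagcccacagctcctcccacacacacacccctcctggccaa
Cldn1 chr16:26371842-26372089: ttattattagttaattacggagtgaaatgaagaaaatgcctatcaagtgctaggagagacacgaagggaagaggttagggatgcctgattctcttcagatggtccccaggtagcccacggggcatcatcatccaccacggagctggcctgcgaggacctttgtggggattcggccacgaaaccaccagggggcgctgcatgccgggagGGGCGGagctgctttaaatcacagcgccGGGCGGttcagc
Gjb2 chr14:57104703-57104952: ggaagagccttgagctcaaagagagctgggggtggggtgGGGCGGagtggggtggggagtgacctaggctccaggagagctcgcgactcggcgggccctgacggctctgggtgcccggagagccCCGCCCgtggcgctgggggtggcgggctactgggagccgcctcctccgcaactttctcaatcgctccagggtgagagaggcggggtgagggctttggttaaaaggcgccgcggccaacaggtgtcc
Gjb6 chr14:57133612-57133861: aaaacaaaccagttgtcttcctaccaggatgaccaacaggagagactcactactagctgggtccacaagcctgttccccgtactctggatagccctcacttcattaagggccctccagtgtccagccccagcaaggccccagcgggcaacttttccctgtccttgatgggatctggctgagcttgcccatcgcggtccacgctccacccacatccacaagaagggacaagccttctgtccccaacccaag
The Gjb5 stretch held a CCAAT box starting 70 bases before the start and TATAAA on the opposite strand at 243 bases. Cldn1 had GC boxes at 42 and 14 bases, and Gjb2 had them at 211 and 126 bases. The Gjb6 stretch matched none of the 6 motifs, and none of the 4 stretches matched TGANTCA, AACCGGTT or TTCNNNGAA. Of the 32851 promoters in the table, 6.75% held TGANTCA, 0.116% AACCGGTT, 7.02% TTCNNNGAA, 12.4% TATAAA, 32.7% GGGCGG and 33.8% CCAAT in the 250 bases before the start. G and C made up 69.2% of the Gjb2 stretch, 56.8% of Gjb6, 55.6% of Cldn1 and 53.2% of Gjb5.

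Gjb5 stood at 33.1, 36.1, 46.9 and 55.5 CPM in the vehicle day 7 mice and at 10.7, 17.5, 12 and 13.2 CPM in the LPC day 7 mice. Every LPC mouse lay below every vehicle mouse, and the log2 fold change was -1.68 ± 0.30 (SE; adjusted p = 0.013, edgeR quasi-likelihood test). Its day 4 values spanned 23.8 to 56.3 CPM with vehicle and 25.7 to 53.2 with LPC, all above the LPC day 7 mice. From day 4 to day 7 with LPC, Gjb5 fell by 1.60 on the log2 scale (adjusted p = 0.0076, edgeR). The LPC effect on Gjb5 differed between the days by -1.74 ± 0.41 on the log2 scale, which did not pass the test (adjusted p = 0.14, edgeR). Its expected counts were whole in 1 of 16 libraries (within 0.005), so some of its reads were divided with other genes and its own level is less certain.

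Gjb2 and Gjb6 had higher values at day 7 of LPC than at day 4. Gjb2 stood at 409, 191, 199 and 194 CPM at LPC day 4 and at 1367, 582, 1197 and 866 CPM at LPC day 7, with no overlap, a log2 change of 2.02 ± 0.56 (adjusted p = 0.035, edgeR). In the vehicle mice it was 169, 458, 112 and 302 CPM at day 4 and 718, 406, 662 and 88.0 CPM at day 7, where mouse 4 was the lowest of all 16 libraries. Vehicle and LPC mice of day 7 overlapped, and Gjb2 did not pass the test there (log2 fold change 1.10 ± 0.55, adjusted p = 0.29, edgeR). The LPC effect on Gjb2 differed between the days by 1.17 ± 0.77, which did not pass the test (adjusted p = 0.45, edgeR).

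Gjb6 stood at 51.8, 38.2, 32.9 and 39.2 CPM at LPC day 4 and at 142, 116, 147 and 166 CPM at LPC day 7 (log2 change 1.82 ± 0.44, adjusted p = 0.023, edgeR). The vehicle day 7 mice had 130.1, 68.4, 144 and 22.3 CPM, so 3 of them lay above all day 4 vehicle mice (16.8 to 51.9 CPM) and mouse 4 did not. The change between the days with vehicle, 1.32 ± 0.44, did not pass the test (adjusted p = 0.25, edgeR). Nor did the difference of the LPC effect on Gjb6 between the days (0.50 ± 0.61, adjusted p = 0.71, edgeR). Gja1, the most widespread connexin of the body, was 209.8 to 657 CPM at vehicle day 7 and 462 to 1237 CPM at LPC day 7, and passed no test (log2 fold change 0.64 ± 0.36, adjusted p = 0.37, edgeR).

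**Figure D3:**
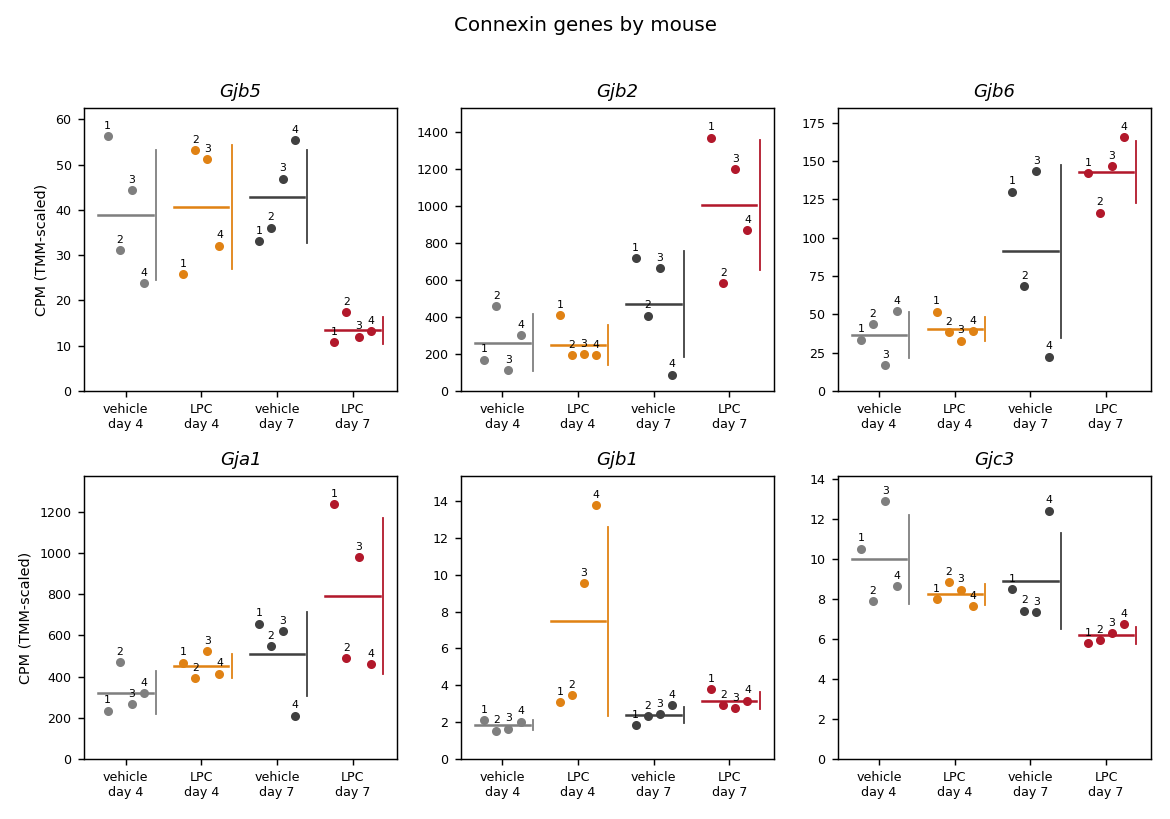
CPM of 6 connexin genes in each mouse (numbered points) of the 4 groups, with the group mean (horizontal line) and ± SD (vertical line), n = 4 mice. Gjb5 is low in all 4 LPC day 7 mice (10.7 to 17.5 CPM), Gjb2 lies there at 582 to 1367 CPM, Gjb1 is highest in LPC day 4 mice 3 and 4, and vehicle day 7 mouse 4 is low for Gjb2, Gjb6 and Gja1.

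The fall of Gjb5 at LPC day 7 went with lower levels of suprabasal keratinocyte genes. In LPC against vehicle at day 7, 1.44% of all tested genes fell and 2.38% rose. Of 10 suprabasal markers, 4 fell (Krt1, Krt10, Flg and Lor) and none rose. Their summed level was 7173 to 11760.0 CPM at LPC day 7, against 23080.0 to 29350.0 at vehicle day 7, 12340.0 to 21390.0 at LPC day 4 and 9353 to 20750.0 at vehicle day 4, and none was at 0. Krt10, the keratin of the spinous and granular layers, was 7948, 6596, 8526 and 8097 CPM with vehicle and 937, 2952, 1625 and 1082 CPM with LPC (log2 fold change -2.24 ± 0.42, adjusted p = 0.015, edgeR). Of 7 basal keratinocyte markers none met the threshold, with summed levels of 11660.0 to 28470.0 and 13430.0 to 34870.0 CPM. The mean log2 CPM of the suprabasal markers per library was then added as a covariate. In that edgeR fit no member and 0% of all tested genes met the threshold at day 7. The log2 fold change of Gjb5 was -0.67 there (adjusted p = 0.58, edgeR). Marker level and treatment were separated at day 7, so they cannot be told apart there.

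The count at day 7 also rested on single mice. It was 2 without vehicle day 7 mouse 2 or 3, 1 without vehicle day 7 mouse 4, 1 without LPC day 7 mouse 1 and 3 without LPC day 7 mouse 3, where the share of all tested genes called was 1.06%, 0.999%, 0.698%, 0.76% and 1.99%. Gjb5 was called in each of these 5 edgeR fits, with log2 fold changes of -1.76, -1.64, -1.53, -1.59 and -1.63. Without the muscle-rich LPC day 7 mice 2 and 4 the count was 17 of 46 tested members (6 higher, 11 lower), the 7 genes among them, while 21% of all tested genes were called in that fit (10.3% upward, 10.7% downward). Between the days with LPC, the count of 12 became 6 without LPC day 4 mouse 2 (1 higher, 5 lower), 5 without LPC day 4 mouse 3 (1 higher, 4 lower) and 2 with the suprabasal covariate (Gja5 higher, Cldn1 lower), with 3.26%, 3.3% and 5.75% of all tested genes called. Over the alternatives, the call between the days with LPC was kept in 18 of 19 for Gjb5 and Dsc2, 16 for Gjb6, 15 for Gja5 and Dsg1c, 13 for Cldn10 and 11 for Gjb2. The call at day 7 was kept in 18 of 19 for Gjb5 and 12 for Dsg1a.

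Gja5 and Gja4 are connexins of arterial endothelium. Gja5 was 1.23, 0.830, 0.519 and 1.37 CPM at LPC day 4 and 2.11, 15.2, 2.77 and 9.39 CPM at LPC day 7, where mice 2 and 4 stood far above mice 1 and 3 (log2 change 2.89 ± 0.64, adjusted p = 0.015, edgeR). Mice 2 and 4 also carried the high values of Gja4, which was 2.59, 19.3, 4.24 and 21.6 CPM at LPC day 7 and 7.79, 7.08, 5.24 and 4.43 CPM at LPC day 4 and passed no test (log2 change 0.96 ± 0.53, adjusted p = 0.23). Of 8 endothelial markers, 4 rose between the days with LPC (Cdh5, Kdr, Pecam1 and Tie1) and none fell. Their summed level was 164 to 268 CPM at LPC day 4, 231 and 263 CPM in LPC day 7 mice 1 and 3, and 756 and 564 CPM in mice 2 and 4, with no marker at 0. Without those mice Gja5 changed by 1.31 between the days, past no threshold (adjusted p = 0.14, edgeR). With vehicle Gja5 was 2.38, 2.72, 0.821 and 2.75 CPM at day 4 and 6.67, 2.63, 4.32 and 1.86 CPM at day 7. Its group mean was lowest at LPC day 4, and vehicle and LPC mice overlapped on both days (adjusted p = 0.34 at day 4 and 0.42 at day 7, edgeR). The endothelial sum was 223 to 373 CPM at vehicle day 4 and 213 to 359 CPM at vehicle day 7.

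Gjc3 is best known from myelinating glia. It was 7.33 to 12.4 CPM with vehicle and 5.78 to 6.75 CPM with LPC at day 7, without overlap, and did not pass the test (log2 fold change -0.53 ± 0.20, adjusted p = 0.15, edgeR). Of 8 Schwann cell markers none met the threshold at day 7 of LPC against vehicle, with summed levels of 304 to 789 CPM (vehicle) and 194 to 456 CPM (LPC) and none at 0. Their part in the Gjc3 values was not tested.

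Gjb1, a connexin of liver and of myelinating Schwann cells, was the member nearest to the threshold at day 4. It was 2.12, 1.53, 1.64 and 2.01 CPM with vehicle and 3.09, 3.47, 9.55 and 13.8 CPM with LPC, with no overlap and with LPC mice 3 and 4 the highest of all libraries (log2 fold change 2.03 ± 0.40, adjusted p = 0.056, edgeR). It was called in 4 of the alternatives, among them without vehicle day 4 mouse 3 (1.96, adjusted p = 0.035) and without LPC day 4 mouse 2 (2.27, adjusted p = 0.042, both edgeR). Of 8 Schwann cell markers, 7 had a negative and 1 a positive log2 fold change with LPC at day 4 (median -0.65), none past the threshold. Their part in the Gjb1 values was not tested. At day 7 Gjb1 was 1.82 to 2.93 CPM with vehicle and 2.77 to 3.79 CPM with LPC, and the groups overlapped. Gja3, a connexin of the lens, was 3.49, 6.32, 3.57 and 2.41 CPM at vehicle day 4 and 0.534, 1.71, 2.75 and 0.305 CPM at LPC day 4, with overlap (log2 fold change -1.57 ± 0.62, adjusted p = 0.18, edgeR).

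Among claudins, Cldn1 was the member that fell with LPC at day 7. Mice without Cldn1 lose water through the skin and die after birth, so it is the best-known barrier claudin of epidermis. Cldn1 was 87.7, 105, 115 and 121 CPM in the vehicle day 7 mice and 56.2, 51.6, 70.7 and 68.9 CPM in the LPC day 7 mice. The groups did not overlap and the spread within each was small, with a log2 fold change of -0.79 ± 0.17 (1.73-fold lower, adjusted p = 0.023, edgeR). At day 4 it was 137, 133, 151 and 111 CPM with vehicle and 116, 166, 158 and 108 CPM with LPC, where the groups overlapped (log2 fold change 0.04 ± 0.16). From day 4 to day 7 with LPC the change was -1.15 ± 0.17 (adjusted p = 0.0032, edgeR), the smallest adjusted p among members in the 5 comparisons. That call was kept in all 19 alternatives, the suprabasal covariate included (-0.95, adjusted p = 0.03, edgeR), and the call at day 7 in 13 of 19.

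Cldn4 and Cldn5, the other leading claudins, passed no test. Cldn4, a claudin of many barrier epithelia, was 65.3, 85.0, 78.2 and 102 CPM at vehicle day 7 and 181, 45.5, 115 and 103 CPM at LPC day 7, with overlap (log2 fold change 0.43 ± 0.34, adjusted p = 0.54, edgeR). Its sign at day 7 was thus opposite to that of Cldn1. Cldn5 was 13.2, 33.2, 12.9 and 39.0 CPM at LPC day 7, higher in mice 2 and 4, and 19.4, 20.4, 22.6 and 60.8 CPM at vehicle day 7. The summed endothelial markers were 359, 213, 350 and 353 CPM in those vehicle mice, without a higher value in mouse 4. The part of endothelium in the Cldn5 values was not tested.

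Cldn10 and Cldn11 changed between the days with LPC. Cldn10, which forms ion pores, was 6.35, 4.98, 4.00 and 2.49 CPM at LPC day 4 and 0.301, 1.46, 0.217 and 1.25 CPM at LPC day 7 (log2 change -2.45 ± 0.65, adjusted p = 0.031, edgeR), with the lowest values near that of 3 counts, 0.145 to 0.181 CPM. With vehicle it went from 13.6, 8.59, 4.20 and 3.49 CPM at day 4 to 0.937, 1.34, 0.843 and 3.47 CPM at day 7, also without overlap though by a narrow margin, and did not pass the test (-2.17 ± 0.63, adjusted p = 0.21, edgeR). The values were thus lower at day 7 under both treatments. Without LPC day 7 mice 2 and 4 the Cldn10 change with LPC was -4.07. Beside it, all 8 sebaceous gland markers had lower fitted values at LPC day 7 than at LPC day 4, and 3 of them fell (Elovl3, Awat1 and Far2). Their summed levels were 2560.0 to 6737 CPM at LPC day 4 and 1138 to 3773 CPM at LPC day 7, with none at 0. At vehicle day 4 the sebaceous sum was 2683, 4414, 9094 and 4360 CPM in mice 1 to 4, lowest in the mouse with the highest Cldn10. All 14 tested hair shaft markers (0 called) and all 6 melanocyte markers (4 called) were also lower between the days with LPC. The part of sebaceous glands, hair or melanocytes in the result was not tested.

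Cldn11, the claudin of myelin and testis, was 0.534, 0.391, 0.415 and 0.356 CPM at LPC day 4 and 2.59, 0.602, 2.93 and 0.571 CPM at LPC day 7. The groups did not overlap, but mice 1 and 3 carried the rise and mice 2 and 4 were near the level of vehicle day 7 (0.464 to 0.978 CPM), the reverse of the pattern of Gja5 (log2 change 1.96 ± 0.52, adjusted p = 0.031, edgeR). The Cldn11 call was lost in 11 of 18 alternatives, among them without LPC day 7 mouse 1 (1.67, adjusted p = 0.057, edgeR) and with the suprabasal covariate (0.98, adjusted p = 0.37, edgeR). The smallest change was 0.50, with limma on log2(FPKM + 1). Cldn19, a claudin of Schwann cells and kidney, was 9.15, 7.65, 18.1 and 9.87 CPM at vehicle day 4 and 7.63, 2.74, 5.24 and 3.05 CPM at LPC day 4, without overlap (log2 fold change -1.26 ± 0.53, adjusted p = 0.21, edgeR). The 8 Schwann cell markers had summed levels of 492 to 637 CPM (vehicle) and 268 to 397 CPM (LPC) at day 4, none of them past the threshold and none at 0. Their part in the Cldn19 difference was not tested.

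**Figure D4:**
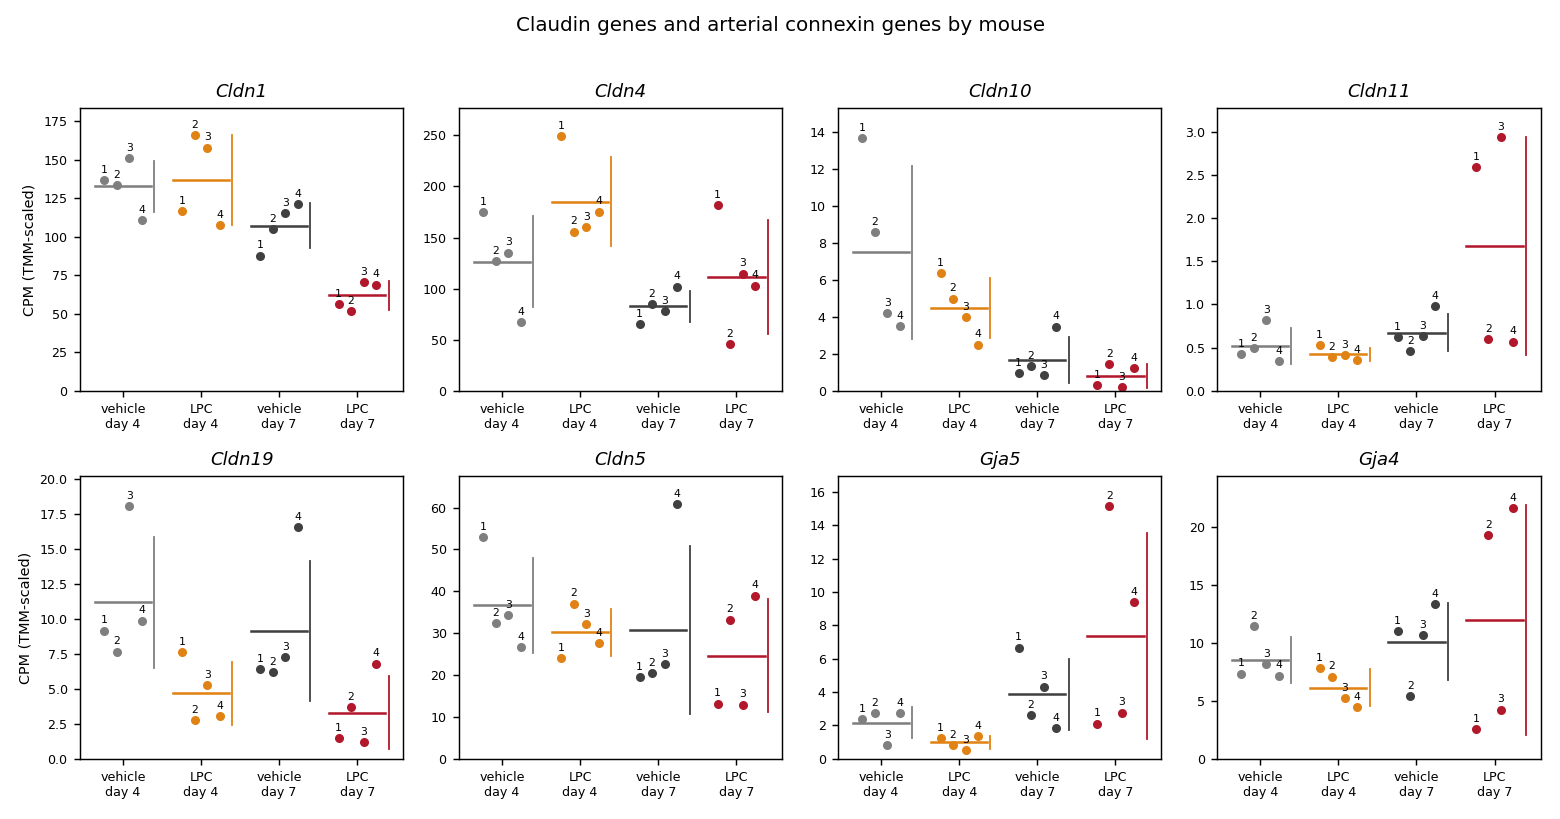
CPM of 6 claudin genes and of Gja5 and Gja4 in each mouse (numbered points) of the 4 groups, with the group mean (horizontal line) and ± SD (vertical line), n = 4 mice. Cldn1 is low in all 4 LPC day 7 mice (51.6 to 70.7 CPM), Gja5, Gja4 and Cldn5 are high in LPC day 7 mice 2 and 4, and Cldn11 is high in mice 1 and 3.

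The other 9 tested claudins, Cldn2, Cldn3, Cldn7, Cldn8, Cldn12, Cldn15, Cldn22, Cldn23 and Cldn34c1, met the threshold in none of the 5 comparisons. Of the 15 tested claudins, 10 had a negative and 5 a positive log2 fold change in LPC against vehicle at day 7, with a median of -0.33. The extremes were Cldn8 (-1.86 ± 0.69, adjusted p = 0.15) and Cldn7 (1.90 ± 0.75, adjusted p = 0.17, both edgeR), each below 5 CPM in every library. Between the days with vehicle 14 of the 15 were negative, with a median of -0.43. Cldn12, the steadiest, stayed between 24.0 and 39.5 CPM over all 16 libraries.

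Dsg1a and Dsg1c, desmogleins of the upper epidermis, fell with LPC at day 7. Dsg1a was 388, 285, 487 and 294 CPM with vehicle and 67.5, 195, 168 and 144 CPM with LPC, with no overlap and a log2 fold change of -1.34 ± 0.30 (adjusted p = 0.029, edgeR). At day 4 it was 207, 129.6, 239.7 and 171 CPM with vehicle and 157, 268, 278 and 225 CPM with LPC, and all vehicle day 7 mice lay above all vehicle day 4 mice. The LPC effect differed between the days by -1.65 ± 0.42, which did not pass the test (adjusted p = 0.16, edgeR).

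Dsg1c was much lower, at 3.75, 2.78, 3.00 and 5.13 CPM with vehicle and 0.602, 2.26, 0.869 and 1.56 CPM with LPC at day 7. These groups did not overlap either (log2 fold change -1.46 ± 0.38, adjusted p = 0.048, edgeR), and the change from day 4 with LPC (2.35, 4.93, 4.26 and 3.61 CPM) was -1.51 ± 0.38 (adjusted p = 0.027, edgeR). The day 7 call of Dsg1c was lost in 12 of 19 alternatives, each single vehicle mouse left out among them, with log2 fold changes from -2.26 to -0.40 and adjusted p up to 0.8 (edgeR, with the suprabasal covariate). Dsg1b did not follow them: it was 459.9, 237, 482 and 126 CPM with vehicle and 255, 269.6, 370.4 and 235 CPM with LPC, overlapping, with a log2 fold change of -0.21 ± 0.32 (adjusted p = 0.79, edgeR). Between the days, Dsg1b had higher values at day 7 both with vehicle (1.65 ± 0.32, adjusted p = 0.16) and with LPC (0.99 ± 0.32, adjusted p = 0.058, edgeR), short of the threshold in both.

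The 3 Dsg1 genes are similar genes. Their expected counts were whole in 0 (Dsg1a), 0 (Dsg1b) and 2 (Dsg1c) of 16 libraries, so some reads were divided with other genes and the split is uncertain. Their summed count was whole in 1 of 16 libraries (within 0.005), so some reads were shared beyond these 3 genes and the sum is also uncertain. Summed, they gave 425 to 971 CPM at vehicle day 7 and 323 to 539.6 CPM at LPC day 7, which overlapped. The log2 fold change of the sum was -0.70 ± 0.25 (adjusted p = 0.13, edgeR), so the sum did not pass the test. With the suprabasal covariate, Dsg1a changed by -0.22 (adjusted p = 0.85, edgeR).

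Dsc2, a desmocollin found in many epithelia, rose between the days with LPC. It was 18.3, 20.3, 15.5 and 21.8 CPM at LPC day 4 and 126, 70.2, 176 and 93.1 CPM at LPC day 7, well apart, with a log2 change of 2.62 ± 0.51 (adjusted p = 0.0095, edgeR). Vehicle mice had 10.00, 24.0, 14.4 and 22.0 CPM at day 4 and 79.5, 30.2, 59.0 and 8.95 CPM at day 7, where mouse 4 was again the lowest. LPC day 7 mice overlapped with vehicle day 7 mice, and the difference of 1.39 ± 0.49 did not pass the test (adjusted p = 0.12, edgeR). Between the days with vehicle the log2 change was 1.335 ± 0.489 (adjusted p = 0.28, edgeR). The LPC effect on Dsc2 differed between the days by 1.28 ± 0.68, which did not pass the test (adjusted p = 0.35, edgeR). All 7 neutrophil markers had higher fitted values at LPC day 7 than at LPC day 4, with 2 called (Cxcr2 and Csf3r) and summed levels of 432 to 2740.0 and 4489 to 12840.0 CPM. Their part in the Dsc2 result was not tested.

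Dsc1, the desmocollin of the upper epidermis, was 123, 62.1, 110.0 and 107 CPM at vehicle day 4 and 386, 209, 440.2 and 137 CPM at vehicle day 7, without overlap (log2 change 1.55 ± 0.35, adjusted p = 0.18, edgeR). It did not pass the test in any comparison. Dsc3, the leading cadherin, was 339, 322, 348 and 365 CPM at vehicle day 4 and 495, 481, 470.1 and 450.0 CPM at LPC day 4, 2 narrow groups without overlap (log2 fold change 0.46 ± 0.22, adjusted p = 0.27, edgeR). By day 7 it was 322 to 666 CPM with vehicle and 354 to 714 CPM with LPC, and the groups overlapped. Dsg3, the antigen of pemphigus vulgaris, was 55.3 to 213 CPM at vehicle day 7 and 103 to 356 CPM at LPC day 7. Dsg2 was 17.5 to 25.0 and 6.82 to 21.9 CPM there, and neither gene met the threshold.

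Dsg4, the desmoglein of the hair shaft, was 4.44, 16.7, 11.4 and 1.13 CPM at vehicle day 4 and 0.469, 1.60, 0.0527 and 1.86 CPM at vehicle day 7, and 2.24, 6.89, 15.2 and 0.153 CPM at LPC day 4 and 0.301, 0.1003, 0.597 and 1.66 CPM at LPC day 7. It had the most negative fitted change of all members between the days (-3.18 ± 1.19 with LPC, adjusted p = 0.089, edgeR), yet the groups overlapped and it was not called. All 14 tested hair shaft markers had negative changes between the days under both treatments, none past the threshold and none at 0, with summed levels of 93.0 to 2216 CPM at LPC day 4 and 71.4 to 539 CPM at LPC day 7, which overlapped, and of 262 to 5667 CPM at vehicle day 4 and 17.8 to 355 CPM at vehicle day 7, which also overlapped. The part of hair in the Dsg4 values was not tested.

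**Figure D5:**
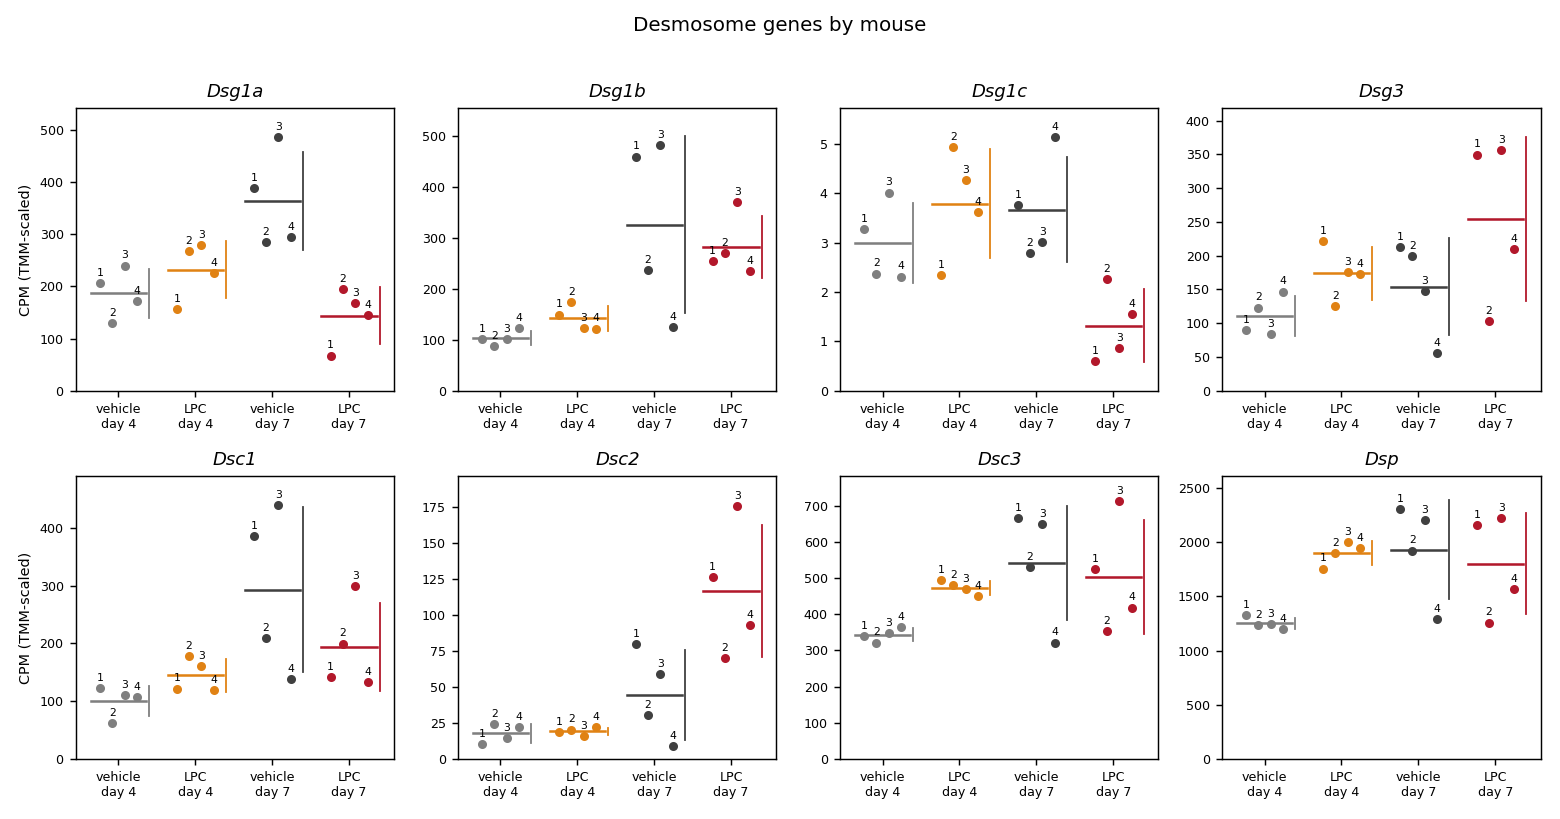
CPM of 7 desmosomal cadherin genes and of Dsp in each mouse (numbered points) of the 4 groups, with the group mean (horizontal line) and ± SD (vertical line), n = 4 mice. Dsg1a (67.5 to 195 CPM) and Dsg1c (0.602 to 2.26 CPM) are low in the LPC day 7 mice, Dsc2 is high there (70.2 to 176 CPM), and Dsc3 and Dsp form narrow groups at day 4.

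The plaque genes and Cdsn held no call in any of the 5 comparisons. Of all tested genes, the LPC effect was called for 0.139% on day 4 and 3.83% on day 7. From day 4 to day 7, 11% were called under LPC and 0% under vehicle. For the difference of the effect it was 0%. With 7 genes, an absence of calls at these shares does not set the class apart. Dsp was 1324, 1234, 1246 and 1197 CPM at vehicle day 4 and 1756, 1897, 2005 and 1947 CPM at LPC day 4, tight groups without overlap (log2 fold change 0.61 ± 0.20, adjusted p = 0.12, edgeR). Pkp1 (769 to 980.0 against 1041 to 1387 CPM) and Pkp3 (309.8 to 457 against 499 to 560.1 CPM) likewise did not overlap at day 4. With Dsc3 and Gjb1 this makes 5 of 45 members without overlap upward at day 4, and Cldn19 downward, where 7.43% and 8.67% of all tested genes did so. These counts are a description of the day 4 values.

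At day 7 the plaque genes of vehicle and LPC mice overlapped. Jup, at 1201, 1052, 1248 and 745 CPM with vehicle and 1521, 728, 1099 and 897 CPM with LPC, had a log2 fold change of -0.000 ± 0.22. Dsp (-0.10 ± 0.20) and Pkp1 (-0.22 ± 0.22) were also near 0 at that time. Values near 0 with such errors do not show that the groups were alike. Between the days with vehicle, Pkp1 went from 980.0, 899, 919 and 769 CPM to 1963, 1485, 1800.0 and 937 CPM (log2 change 0.79 ± 0.23, adjusted p = 0.21, edgeR). Only vehicle day 7 mouse 4 lay within the day 4 range, and without it 6 of 45 members were called in this comparison, all higher, where 1.29% of all tested genes were called (0.975% upward). Among them were Pkp1 (0.97, adjusted p = 0.037), Dsg1b (1.92, adjusted p = 0.01) and Dsc1 (1.78, adjusted p = 0.027, edgeR).

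Cdsn had the most negative fold change of these genes in LPC against vehicle at day 7. It was 276, 329, 337 and 399.5 CPM with vehicle and 184, 160.0, 217 and 243 CPM with LPC, without overlap, and did not pass the adjustment (log2 fold change -0.74 ± 0.25, adjusted p = 0.11, edgeR). With the 7 genes that fell and Gjc3, it is 1 of 9 members without overlap downward at day 7, where 5.16% of all tested genes showed this, and no member did so upward (5.7% of all genes). Between the days with LPC, 6 members lay without overlap upward and 9 downward (8.85% and 8.22% of all genes), and with vehicle 3 and 3 (3.45% and 2.76%).

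Of all tested genes, 2.38% rose and 1.44% fell in LPC against vehicle at day 7. Between the days with LPC, 6.87% rose and 4.13% fell. Of 27 tested tight junction partners, 2 fell with LPC at day 7 and none rose, with 10 positive and 17 negative log2 fold changes. Both are cytoplasmic plaque proteins of the tight junction: Tjp3 (-1.57 ± 0.30, adjusted p = 0.017), 44.8 to 94.0 CPM with vehicle and 17.3 to 25.7 CPM with LPC, and Cgn, or cingulin (-1.67 ± 0.39, adjusted p = 0.033, both edgeR). From day 4 to day 7 of LPC the same pair fell, with occludin (Ocln, -0.69 ± 0.19, adjusted p = 0.032) and tricellulin (Marveld2, -1.38 ± 0.25, adjusted p = 0.0071, edgeR). Tjp1, the best-known tight junction scaffold, did not pass the test (0.14 ± 0.15 at day 7).

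Of 19 desmosome partners, 4 fell with LPC at day 7 and none rose: Krt10, Krt1 (-1.65 ± 0.43, adjusted p = 0.046), periplakin (Ppl, -0.83 ± 0.19, adjusted p = 0.03) and the transcription factor Grhl1 (-0.67 ± 0.17, adjusted p = 0.043, edgeR), which is known to control Dsg1 genes. In this list 8 log2 fold changes were positive and 11 negative, and of all tested genes 2.38% rose and 1.44% fell. Krt1 and Krt10 are also suprabasal markers above. Grhl1 was 204, 193, 214 and 189 CPM with vehicle and 129, 105, 149 and 121 CPM with LPC at day 7, without overlap. From day 4 to day 7 of LPC, Krt10 and Grhl1 fell and the protease gene Klk14 rose (1.73 ± 0.46, adjusted p = 0.032, edgeR). Of all tested genes, 4.13% fell and 6.87% rose between those days.

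Of all tested genes, 3.83% met the threshold at day 7 of LPC against vehicle and 11% between the days with LPC. None of 13 adherens junction genes met it at day 7 of LPC against vehicle (9 positive, 4 negative). E-cadherin (Cdh1) stood at a log2 fold change of 0.03 ± 0.24 there. Arvcf, a catenin, fell between the days with LPC (-0.99 ± 0.26, adjusted p = 0.031, edgeR). Of 9 pannexins and connexin partners, Panx3 fell between the days with LPC (-2.17 ± 0.59, adjusted p = 0.033, edgeR), and none met the threshold at day 7 of LPC against vehicle (6 positive, 3 negative). In both lists the counts are near the shares of all tested genes. Of 18 epithelial transcription factors, Snai1, a repressor of epithelial junction genes, rose with LPC at day 7 (1.08 ± 0.25, adjusted p = 0.031, edgeR), from 7.90 to 13.5 CPM with vehicle to 13.4 to 29.7 CPM with LPC, with overlap in mouse 4 of each group. Grhl1 was the 1 that fell there, with 13 of the 18 log2 fold changes positive and 5 negative. Over the LPC days, Zeb2 rose (1.32 ± 0.29) and Gata3 (-1.09 ± 0.22), Esrp1 (-0.82 ± 0.20) and Grhl1 (-0.58 ± 0.17) fell, with adjusted p of 0.015, 0.012, 0.024 and 0.04 (edgeR). In these 5 lists no gene met the threshold in LPC against vehicle at day 4, between the days with vehicle or in the difference of the LPC effect. Of all tested genes, 0.139%, 0% and 0% did so, which leaves nothing particular to the lists.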

How the data were processed

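RNA-seq was made from ear skin of 16 mice, 4 in each of 4 groups by treatment and day. Groups and mouse numbers come from the sample titles, since file names give days 3 and 6 where titles give 4 and 7. Per the labels' protocols and the submitters' processing notes, the authors aligned reads to GRCm38 with Bowtie2 and quantified genes with RSEM. Their versions and the strand setting were not given in the sources used here; tools alone are named. The deposited files hold RSEM expected counts, which are fractional where RSEM divided reads between similar genes, and FPKM values, scaled by the authors to length and depth. A gene missing from a file was taken as 0. The 3657 genes with too few counts were removed by filterByExpr after expected counts were rounded.

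The remaining 15782 genes, 45 of the 65 members among them, were fitted with edgeR 4.0.16 in R 4.3.3 (TMM factors 0.836 to 1.107, quasi-likelihood test, all 16 libraries, 1 mean per group, 12 residual degrees of freedom, common dispersion 0.122). A gene was called at a Benjamini-Hochberg adjusted p below 0.05 over all tested genes. Simulated counts with known changes were used to check the fit. A gene without counts could be present at up to 3 counts, 0.145 to 0.181 CPM, which covers counting error only. Levels between genes are compared in FPKM. Named members are those called in any of the 5 comparisons, the 4 with the smallest p where fewer than 4 were called, and the 3 with the highest mean FPKM in each class, except some that are not reported here (all are in the counts); Gja4, Gjc3, Dsg2, Dsg3, Dsg4, Pkp3, Cdsn, Cldn7, Cldn8, Cldn12 and the partner genes beyond the 3 with the smallest p of a list were added after their values were seen. The members, partner lists and markers were chosen with earlier results of these data known.

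Alternatives were median-of-ratios size factors, DESeq2 1.42.0, no filter, a filter of 1 CPM in 8 libraries, limma 3.58.1 on log2(FPKM + 0.1) and log2(FPKM + 1), the 8 compared libraries alone, a replicate block, a muscle covariate and leaving out each mouse. A suprabasal covariate, leaving out LPC day 7 mice 2 and 4, and the summed Dsg1 genes were added after seeing the data. Promoter motifs were matched in RefSeq sequences.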

Additional observations from a re-analysis of the deposited data

Results flagged for a closer look

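In 80 groups of 4 mice (20 named members in 4 groups), 3 held a mouse far from the other 3 by Dixon's criterion, where chance alone gives about 1 in 20 groups. Gjb2 at LPC day 4 was 408.8 CPM in mouse 1 and 190.8 to 198.5 CPM in the others. Cldn19 at vehicle day 7 was 16.6 CPM in mouse 4 and 6.18 to 7.27 CPM in the others. Gja5 at vehicle day 4 was 0.821 CPM in mouse 3 and 2.38 to 2.75 CPM in the others.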

How the results depend on the processing

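No log2 fold change of a named member changed sign in the 608 refits of 31 values; 100 of them lost a call and 16 gained one. DESeq2 called 1 member in LPC against vehicle at day 4, 3 between the days with vehicle (2 higher, 1 lower) and 6, all lower, in the difference of the LPC effect, where edgeR called 0; DESeq2 called 7%, 1.41% and 3.71% of all tested genes there. With the 8 compared libraries alone, edgeR called 3 members at day 4, all higher, and 1 at day 7 (8.67% and 0.295% of all genes). The suprabasal covariate left 0 at day 7 and 2 between the days with LPC (0% and 5.75% of all tested genes). With the muscle covariate, 8 members were called at day 7 and 10 between the days with LPC (7.72% and 5.98% of all tested genes). In the other 3 comparisons that fit called 0 members and 0% of all tested genes. Without LPC day 7 mice 2 and 4, 17 were called at day 7 and 1 in the difference (21% and 0.423% of all tested genes). Leaving out 1 mouse at a time gave 0 to 1 calls for LPC against vehicle at day 4 (0% to 4.3% of all tested genes). At day 7 it gave 1 to 7 (0.698% to 4.38%). Between the days it gave 0 to 6 with vehicle (0% to 1.29%) and 5 to 13 with LPC (3.26% to 13.9%). For the difference it gave 0 to 1 (0% to 1.35%), the 1 arising without vehicle day 4 mouse 3. With the mouse number as a replicate block, the counts were 5 at day 7 and 9 between the days with LPC (2.22% and 5.71% of all tested genes). They were 0 in the other 3 comparisons (at most 0.0127%). Of 24 pairings of same-numbered mice, 9 correlated above 0.1 (-0.60 to 0.54), so the numbers were not taken to pair mice. Limits: 4 mice a group, a biological coefficient of variation of 35% and differing tissue make-up bound what could be called, and 20 members had too few counts to test. The cause of the differences between settings was not tested.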
